A study of Homo sapiens with 8 samples.

Results

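The genes described here are 54 genes of DNA replication origins and forks, chosen by symbol for their known function: origin licensing and the replicative helicase, origin firing, the DNA polymerases, the sliding clamp and Okazaki fragment maturation, the single-strand binding protein RPA, fork stability, and the chromatin proteins that follow the fork. The list was drawn up with earlier results of these data known, and it does not hold every gene of these processes. All 54 were found among the 23857 genes of the deposited tables, and all 54 were among the 15681 genes tested. RNA was measured by sequencing in HCT-116, a human colorectal carcinoma cell line with intact p53, under 4 treatments of 2 libraries each. Cells were given 40 µM 5-fluorouracil (5-FU) or DMSO for 12 h, washed, and then given 2.5 µM 3-MB-PP1 or DMSO for 4 h. The groups are called 5-FU/3-MB-PP1 cells (5-FU, then 3-MB-PP1), 5-FU cells (5-FU, then DMSO), 3-MB-PP1 cells (DMSO, then 3-MB-PP1) and DMSO cells (DMSO at both steps). 5-FU is an antimetabolite that depletes thymidylate and is built into RNA, and 3-MB-PP1 is a bulky adenine analogue that inhibits kinases carrying an enlarged ATP pocket. The series as a whole concerns p53 activation and inhibitors of the kinase Cdk7. Which kinase allele the cells carry is not in the labels, and no group of ordinary HCT-116 cells with 3-MB-PP1 was used here, so a change with 3-MB-PP1 is that of the compound in these cells. The labels number the replicates without saying that they were separate cultures, and p-values then measure the spread between these libraries, which may be technical.

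Origins are licensed when the origin recognition complex (ORC), CDC6 and CDT1 load the MCM2 to MCM7 helicase onto DNA, and geminin (GMNN) blocks that step by binding CDT1. In S phase the kinase CDC7 with its activator DBF4, together with TOPBP1, MCM10 and the GINS complex, turns the loaded rings into moving helicases. Most of these genes are classical targets of the E2F factors and are transcribed most strongly as cells enter S phase, and activated p53 is known to lower many of them through p21 and the DREAM repressor complex.

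The libraries held 10560718 to 50405822 gene counts, the deepest being 3-MB-PP1 cells replicate 1, and the lowest count of any of the 54 genes in a library was 37, in FAM111B. Replicates correlated at 0.993 to 0.994 in log CPM (counts scaled to library size), and the common biological coefficient of variation was 0.0423. The epithelial markers EPCAM, KRT8 and KRT18 were abundant and VIL1 was near 0, and the 6 epithelial markers together measured 2076 to 2077 RPKM (reads scaled to transcript length and library size) in 5-FU/3-MB-PP1 cells, 2175 to 2197 in 5-FU cells, 1466 to 1498 in 3-MB-PP1 cells and 1319.9 to 1366 in DMSO cells. Within this sum, with 5-FU alone KRT8 at 0.81, KRT18 at 0.69 and CDX2 at 0.30 were called higher on the log2 scale, EPCAM at -0.36 was called lower and CDH1 at 0.17 did not pass the test. The 8 markers of blood, stromal and endothelial cells together measured 7.80 to 10.52 RPKM over all libraries, with PTPRC, CD3E, CD14 and COL3A1 near 0. Among them COL1A1 was called higher with 5-FU alone, at 0.48 on the log2 scale. LYZ at 0.03 and PECAM1 at -0.32 did not pass that test. The part of these shifts in the results was not tested. The summed RPKM of CDKN1A and MDM2, both p53 targets, was 498 to 505 in 5-FU/3-MB-PP1 cells, 972 to 1010 in 5-FU cells, 123 to 126 in 3-MB-PP1 cells and 145 in DMSO cells. The libraries labelled 5-FU thus carried more RNA of these targets than those without it.

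RPKM allows levels to be set against each other between genes. In DMSO cells the 54 genes spanned 8.29 to 342 RPKM with a median of 30.4, and their median was 11.3 in 5-FU/3-MB-PP1 cells, 11.1 in 5-FU cells and 26.0 in 3-MB-PP1 cells. PCNA, the sliding clamp, was the most abundant, at 216 ± 5.67 RPKM in 5-FU cells and 342 ± 3.81 RPKM in DMSO cells (SD, n = 2). Among the 6 subunits of the helicase ring, MCM7 stood highest in DMSO cells at 205 ± 2.19 RPKM. MCM3 at 118 ± 1.28, MCM4 at 113 ± 0.663, MCM5 at 102 ± 3.11 and MCM2 at 91.8 ± 2.72 RPKM followed, and MCM6 was lowest at 59.9 RPKM. MCM7 holds 3 microRNA genes within its body and overlaps AP4M1 on the opposite strand, and whether strand was used in counting is not known here, so its level may include reads of those genes. The subunits of the clamp loader also differed among themselves in DMSO cells, with RFC4 at 63.6 ± 2.78, RFC2 at 62.5 ± 0.684, RFC5 at 56.8 ± 1.98, RFC1 at 39.2 ± 0.690 and RFC3 at 24.7 ± 1.14 RPKM. RFC4 and RFC2 did not differ beyond their spread, and RFC3 was lower than the other loader subunits by more than its spread.

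With 5-FU alone, nearly all of these genes were lower. Of the 54 genes, 52 fell, none rose and 2 did not pass the test when 5-FU cells were set against DMSO cells (edgeR, adjusted p under 0.05 over all genes tested). That is 96.3% of them, while of all genes tested 43.9% were called, 22.6% lower and 21.3% higher. The list was not chosen blind to these data, so its share need not hold for replication genes at large. Among 31 further replication genes outside it, 83.9% were called lower. The median log2 fold change was -1.60, against 0.003 for all genes tested, and 46 of the 54 were more than 2-fold lower. In all 54 genes both 5-FU libraries lay below both DMSO libraries, and the libraries of the 2 groups did not overlap in 69.5% of all genes tested. Summed over the 54 genes, the level was 2837 and 2849.8 CPM in 5-FU cells and 7731 and 7791 CPM in DMSO cells. These are bulk samples, in which fewer cells that express a gene and less RNA per cell cannot be told apart.

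The licensing genes split into the helicase loaders, which fell several-fold, and parts of ORC, which hardly moved. CDC6, which brings the helicase to ORC, had 29.7 and 28.2 CPM in 5-FU cells, against 202 and 209 CPM in DMSO cells (log2 fold change -2.83, SE 0.07, edgeR adjusted p = 1.95e-20). It lies at chr17:38444146-38459413 on the plus strand of hg19. CDT1, its partner in loading, had 30.3 and 28.4 CPM in 5-FU cells, against 106 and 118.7 CPM in DMSO cells (log2 fold change -1.94, SE 0.07, edgeR adjusted p = 2.88e-17). Both loaders were low in each 5-FU library and the groups stood far apart. Geminin, the inhibitor of CDT1, changed by -1.95, so the loader and its inhibitor were lowered by a like amount. All 6 helicase ring subunits fell, with log2 fold changes of -2.09 (MCM4), -1.84 (MCM2), -1.70 (MCM5), -1.66 (MCM3), -1.59 (MCM7) and -1.55 (MCM6). MCM4, the most lowered of them, had 128 and 139 CPM in 5-FU cells, against 567 and 572 CPM in DMSO cells (log2 fold change -2.09, SE 0.05, edgeR adjusted p = 1.95e-20). The RNA of the 6 subunits was thus not lowered evenly, with MCM4 at 23.4% and MCM6 at 34.1% of its level in DMSO cells.

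Within ORC the subunits did not move together. ORC6, which helps to recruit the helicase, had 17.5 and 18.5 CPM in 5-FU cells, against 56.3 and 56.2 CPM in DMSO cells (log2 fold change -1.64, SE 0.08, edgeR adjusted p = 8.43e-15), and ORC3 fell by 1.10 on the log2 scale. ORC4, one of the ATPase-fold subunits, had 158 and 155 CPM in 5-FU cells, against 162 and 161 CPM in DMSO cells (log2 fold change -0.04, SE 0.06, edgeR adjusted p = 0.589). ORC2 also did not pass the test (log2 fold change -0.13, SE 0.06, edgeR adjusted p = 0.117). The 5-FU libraries of both genes lay below the DMSO libraries, by amounts that did not pass the test. ORC5 was called lower at -0.18 (edgeR adjusted p = 0.0285), but this call was lost with DESeq2 (adjusted p above 0.05), with no filter on low counts and on leaving out any of 6 libraries in turn. ORC4 overlaps ACVR2A on the opposite strand, so its level is uncertain. ORC1, the subunit whose amount is known to follow the cell cycle, is not among the 54, and at -2.61 it was lowered by more than any of the 5 ORC subunits among them.

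All 8 firing genes fell. MCM10, needed for the helicase to start moving, had 23.1 and 22.2 CPM in 5-FU cells, against 156 and 149.7 CPM in DMSO cells (log2 fold change -2.75, SE 0.07, edgeR adjusted p = 7.17e-20). Within the GINS complex, which joins CDC45 and the MCM ring in the active helicase, the log2 fold changes were -2.48 (GINS2), -1.95 (GINS1), -1.59 (GINS3) and -1.13 (GINS4). CDC7, the kinase that fires origins, changed by -1.60, TOPBP1 by -1.27 and DBF4, the smallest of the 8, by -1.07. DBF4 overlaps SLC25A40 on the opposite strand.

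All 8 polymerase genes fell as well. PRIM1, the catalytic primase subunit, had 9.63 and 9.43 CPM in 5-FU cells, against 58.2 and 57.7 CPM in DMSO cells (log2 fold change -2.60, SE 0.11, edgeR adjusted p = 1.42e-16). The other subunits of the polymerase alpha-primase complex, which begins each new strand, had log2 fold changes of -1.93 (POLA2), -1.49 (PRIM2) and -1.47 (POLA1). In polymerase delta, the lagging-strand enzyme, the accessory subunit POLD3 changed by -2.30 and the catalytic subunit POLD1 by -0.80, the smallest change of the polymerase genes. In polymerase epsilon, the leading-strand enzyme, the catalytic subunit POLE changed by -1.41 and POLE2 by -1.80. Subunits of 1 enzyme thus differed by more than their errors, as in polymerase delta, where the SEs were 0.11 for POLD3 and 0.07 for POLD1.

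The 10 genes of the clamp and of Okazaki fragment maturation all fell, over a wide range. DSCC1, a subunit of an alternative clamp loader that also acts in sister chromatid cohesion, had 16.7 and 16.3 CPM in 5-FU cells, against 88.5 and 91.0 CPM in DMSO cells (log2 fold change -2.44, SE 0.07, edgeR adjusted p = 7.01e-19). FEN1, the flap nuclease, changed by -2.37, whereas LIG1, the ligase that seals the fragments, changed by -0.69. PCNA itself had 286 and 302 CPM in 5-FU cells, against 478 and 471 CPM in DMSO cells (log2 fold change -0.69, SE 0.05, edgeR adjusted p = 9.38e-12). PCNA, also known as a direct p53 target, and LIG1 shared the smallest fall in the group. The loader subunits had log2 fold changes of -1.87 (RFC4), -1.72 (RFC5), -1.58 (RFC3), -1.44 (RFC2) and -1.06 (RFC1), and CHTF18, the partner of DSCC1, had -1.07. PCNA overlaps its antisense transcript PCNA-AS1, RFC4 overlaps EIF4A2 and CHTF18 overlaps GNG13.

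RPA showed the smallest median among the roles, at -0.98, with RPA2 at -1.12, RPA3 at -0.98 and RPA1 at -0.84, all 3 called lower. The 4 fork stability genes fell, most of all CLSPN (claspin), which carries the checkpoint signal from stalled forks. It had 28.1 and 29.3 CPM in 5-FU cells, against 167 and 161 CPM in DMSO cells (log2 fold change -2.52, SE 0.07, edgeR adjusted p = 1.29e-19), and WDHD1, TIMELESS and TIPIN changed by -1.77, -1.43 and -1.06. The 5 chromatin genes fell too. ASF1B, a histone H3-H4 chaperone, changed by -2.74, the CAF-1 subunits CHAF1A and CHAF1B by -2.56 and -1.84, UHRF1 by -1.70 and DNMT1, the maintenance DNA methyltransferase, by -1.01. MCM8, which acts in recombination, changed by -1.58. The largest fall of all 54 genes was that of FAM111B, a protease-fold protein, with 2.84 and 2.46 CPM in 5-FU cells, against 30.5 and 29.99 CPM in DMSO cells (log2 fold change -3.51, SE 0.14, edgeR adjusted p = 5.38e-17). FAM111B was also the gene with the lowest counts.

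**Figure D1:**
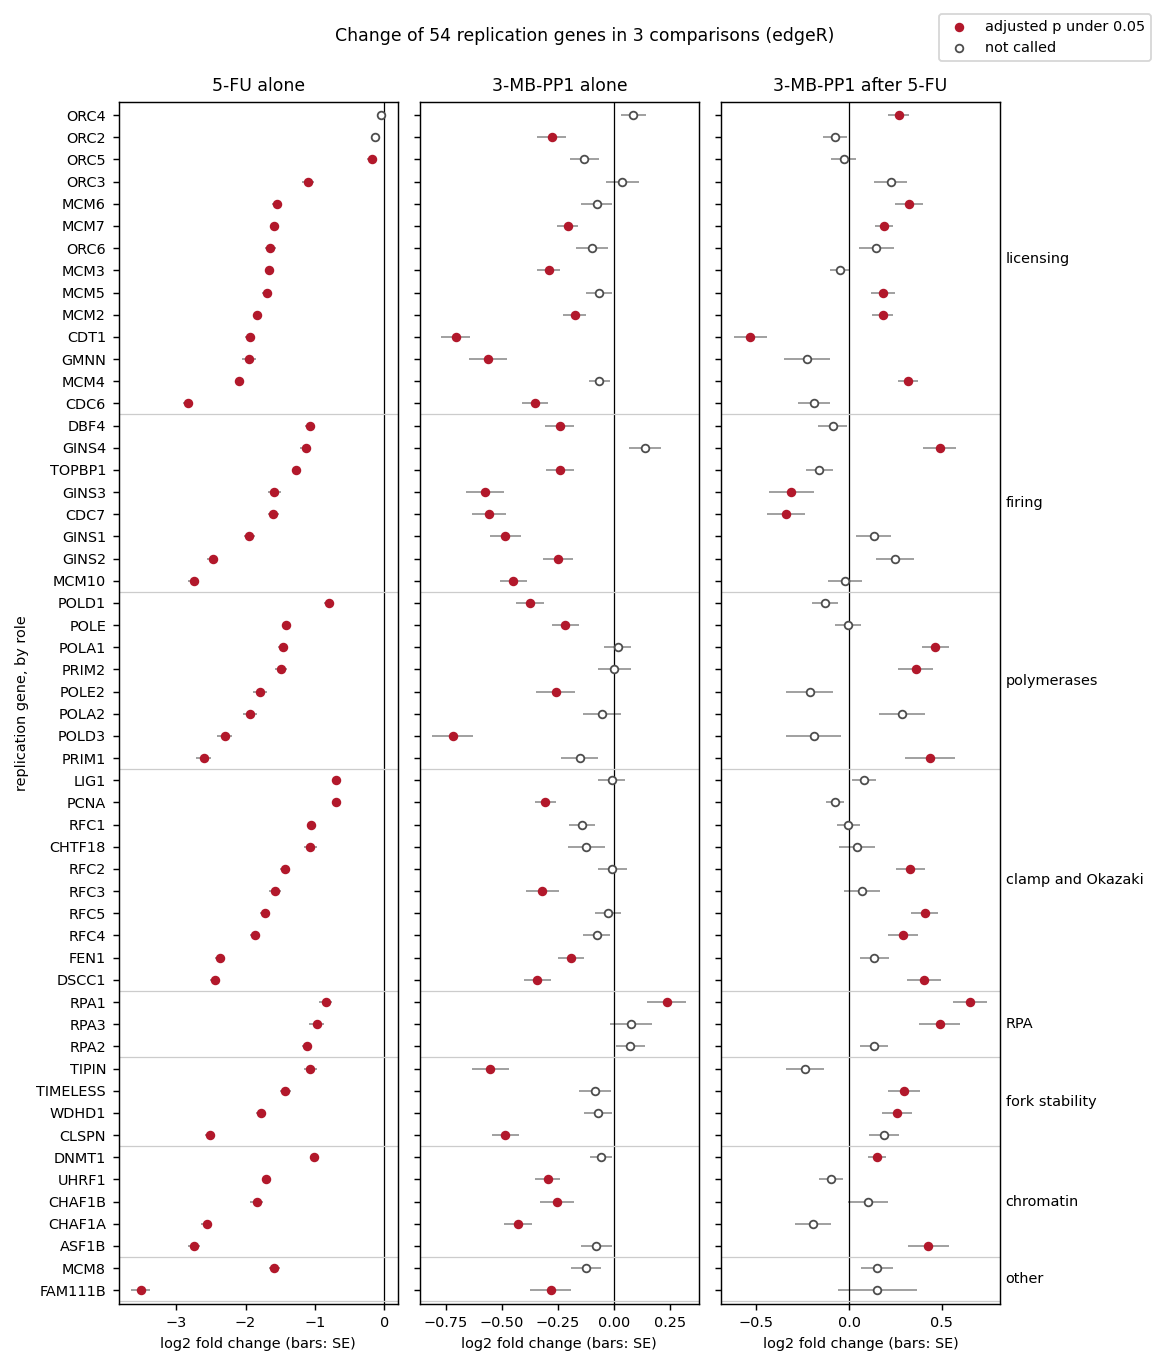
Log2 fold change (x axis, bars are SE) of each of the 54 genes, grouped by role down the page, for 5-FU alone, 3-MB-PP1 alone and 3-MB-PP1 after 5-FU, with filled points for genes called at adjusted p under 0.05. The 5-FU changes lie left of 0 and reach -3.51, while those of 3-MB-PP1 stay between -0.72 and 0.65.

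Most of these calls did not hang on the way the counts were handled, with the exception of scaling to spike-ins. Of the 52 genes called lower, 51 kept the call under DESeq2, another scaling, other filters and transcripts, and on leaving out each library. Scaling to the ERCC spike-ins, whose counts vary between replicates, left 20 called, with a median of -1.50 and 53 of 54 genes negative.

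The promoters of 5 of the genes are shown because E2F factors are known regulators of such genes. Some of the letters they recognise can be looked for there. The RefSeq promoter table for GRCh38.p14 gave 300 bases, 250 before the start of the gene and 50 from it on, for 46 of the 54 genes. Promoters were taken by symbol and not matched to the transcript counted. A window, that of ORC4 included, may thus lie away from the start of the transcript measured. The letters searched were TTTCCCGC, TTTCGCGC, TTTGCCGC and TTTGGCGC on both strands, where TTTGGCGC on one strand can overlap TTTCGCGC on the other. Capitals mark them. CDC6 (chr17:40287629-40287928, plus strand), MCM6 (chr2:135876394-135876693, minus strand), CLSPN (chr1:35769929-35770228, minus strand) and GINS1 (chr20:25407423-25407722, plus strand) hold such words, and ORC4 (chr2:148021502-148021801, minus strand), whose RNA did not pass the test with 5-FU, holds none in this window. The absence is not particular to ORC4, since strongly lowered genes held none of these exact words either. Among them were MCM10 at -2.75, ASF1B at -2.74, PRIM1 at -2.60, CHAF1A at -2.56 and FEN1 at -2.37. This does not show that they lack letters recognised by E2F factors, since close forms were not searched. MCM10 and CHAF1A, for example, hold TTTGGCGG, which differs from TTTGGCGC in the last base. Each promoter shown is written 5′ to 3′ on the strand of its gene.
CDC6 promoter: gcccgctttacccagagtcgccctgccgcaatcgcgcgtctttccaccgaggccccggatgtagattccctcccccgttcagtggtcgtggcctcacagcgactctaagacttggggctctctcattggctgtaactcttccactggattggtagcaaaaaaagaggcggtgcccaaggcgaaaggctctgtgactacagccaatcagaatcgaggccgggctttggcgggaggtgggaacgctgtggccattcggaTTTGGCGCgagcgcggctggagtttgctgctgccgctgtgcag
MCM6 promoter: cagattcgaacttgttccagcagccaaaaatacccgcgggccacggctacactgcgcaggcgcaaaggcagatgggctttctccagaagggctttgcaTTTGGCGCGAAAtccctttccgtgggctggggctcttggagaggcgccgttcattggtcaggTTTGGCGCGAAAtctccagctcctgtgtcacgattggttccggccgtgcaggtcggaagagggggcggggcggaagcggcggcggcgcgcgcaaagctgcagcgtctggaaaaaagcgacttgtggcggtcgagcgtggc
CLSPN promoter: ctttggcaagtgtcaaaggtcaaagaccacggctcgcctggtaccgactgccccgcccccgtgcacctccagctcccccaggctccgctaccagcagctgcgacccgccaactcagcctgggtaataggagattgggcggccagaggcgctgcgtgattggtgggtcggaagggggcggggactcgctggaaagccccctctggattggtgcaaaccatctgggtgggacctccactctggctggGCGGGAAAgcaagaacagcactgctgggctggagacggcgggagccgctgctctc
GINS1 promoter: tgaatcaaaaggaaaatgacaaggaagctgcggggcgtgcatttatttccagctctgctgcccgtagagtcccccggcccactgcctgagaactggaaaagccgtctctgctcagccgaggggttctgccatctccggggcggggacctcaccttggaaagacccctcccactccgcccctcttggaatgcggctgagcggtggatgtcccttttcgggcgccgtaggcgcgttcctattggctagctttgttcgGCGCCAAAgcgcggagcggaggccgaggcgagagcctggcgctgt
ORC4 promoter: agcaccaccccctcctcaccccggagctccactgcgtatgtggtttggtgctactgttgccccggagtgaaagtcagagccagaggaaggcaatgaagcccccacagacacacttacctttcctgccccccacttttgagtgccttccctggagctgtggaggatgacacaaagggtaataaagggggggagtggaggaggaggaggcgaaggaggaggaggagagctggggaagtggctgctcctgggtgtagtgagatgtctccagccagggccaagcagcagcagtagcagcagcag
In CDC6, CLSPN and GINS1 the word begins at positions 7, -5 and 5 with the first base of the gene as 0 and negative before it, and MCM6 holds overlapping words in a pair of places upstream.

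Of the 46 promoters matched, 22 held at least 1 of these words, or 47.8%, against 3.33% of the 27303 promoters in the table. TTTCCCGC was in 11, TTTCGCGC in 7 and TTTGGCGC in 7 of them. The median log2 fold change with 5-FU alone was -1.59 in the genes with a word and -1.54 in those without any of the exact words. Some of the latter hold the close form TTTGGCGG, so this split does not separate genes with and without E2F sites. CCAAT, read on both strands, was in 25 of the 46, or 54.3%, against 35.7% of all promoters. The letters TTTGAA, part of a cell cycle homology element of genes expressed later in the cycle, were in 2 of the 46, or 4.35%, against 15.4% of all promoters. The promoters compared were not matched for base composition, and its part in these shares was not tested. A match describes the letters only and shows no binding.

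Given without 5-FU, 3-MB-PP1 shifted these genes far less. Compared with DMSO cells, 28 of the 54 fell in 3-MB-PP1 cells, 1 rose and 25 did not pass the test, with a median log2 fold change of -0.18. The share that fell was 51.9%, while of all genes tested 28.5% were called, 16.9% lower and 11.6% higher. The libraries of the groups did not overlap in 43 of the 54 genes, against 62.5% of all genes tested. None of the 54 moved more than 2-fold.

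By role, 7 of 8 firing genes, 7 of 14 licensing genes and 4 of 8 polymerase genes were called lower. CDT1 had 69.2 and 68.4 CPM in 3-MB-PP1 cells, against 106 and 118.7 CPM in DMSO cells (log2 fold change -0.71, SE 0.07, edgeR adjusted p = 1.06e-08). CDC6 fell less, with 164 and 158 CPM in 3-MB-PP1 cells, against 202 and 209 CPM in DMSO cells (log2 fold change -0.35, SE 0.06, edgeR adjusted p = 5.68e-05). GMNN changed by -0.56, CDC7 by -0.56, GINS3 by -0.57, GINS1 by -0.48 and MCM10 by -0.45, all called lower. GINS4, which did not pass the test, had 0.14. In the helicase ring, MCM3 at -0.29, MCM7 at -0.21 and MCM2 at -0.18 were called lower, while MCM4 at -0.07, MCM5 at -0.07 and MCM6 at -0.08 did not pass the test. The largest change of all 54 was in POLD3, with 22.9 and 22.1 CPM in 3-MB-PP1 cells, against 37.6 and 36.9 CPM in DMSO cells (log2 fold change -0.72, SE 0.09, edgeR adjusted p = 1.42e-06). POLD1 changed by -0.37, whereas POLA1, PRIM2, POLA2 and PRIM1 of the alpha-primase complex did not pass the test, at 0.02, 0.00, -0.06 and -0.15.

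Among the remaining roles, PCNA had 386 and 382 CPM in 3-MB-PP1 cells, against 478 and 471 CPM in DMSO cells (log2 fold change -0.31, SE 0.05, edgeR adjusted p = 2.68e-05), and DSCC1, RFC3 and FEN1 were also called lower. The other loader subunits RFC1, RFC2, RFC4 and RFC5 did not pass the test. TIPIN and CLSPN fell at -0.55 and -0.49, and CHAF1A, UHRF1 and CHAF1B at -0.43, -0.30 and -0.25. RPA1, the large RPA subunit, was the 1 gene called higher, with 127 and 171 CPM in 3-MB-PP1 cells, against 126 and 123 CPM in DMSO cells (log2 fold change 0.23, SE 0.09, edgeR adjusted p = 0.0458). Its replicate 1 lay close to the DMSO libraries and replicate 2 well above them, and the call was lost with DESeq2 and on leaving out any of 4 libraries in turn.

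The direction of the whole list with 3-MB-PP1 depended on the scaling. Scaled to the spike-ins, the median of the 54 genes was 0.03 and none was called, and the median of all genes was then 0.19. Of the 54, 43 lay below that median, against 44 with the scaling used above. A change of scaling shifts all genes by nearly the same amount. Their position against the median of all genes is thus nearly fixed in advance and lends the calls no support. On leaving out DMSO cells replicate 2, 20 genes were called lower. Of the 29 genes called in either direction, 23 kept the call under DESeq2. Only 18 kept it under every alternative except the spike-in scaling.

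In cells already treated with 5-FU, more of these genes rose with 3-MB-PP1 than fell. Of the 54, 20 rose, 3 fell and 31 did not pass the test in 5-FU/3-MB-PP1 cells against 5-FU cells, with a median log2 fold change of 0.14. The share that rose was 37.0%, against 15.7% of all genes tested, and the share that fell was 5.56%, against 17.2%, with 32.9% of all genes called in either direction. The libraries did not overlap in 39 of the 54 genes, against 65.6% of all genes tested. This comparison and that of 5-FU alone share the 5-FU cells.

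The largest rise was in RPA1, with 108 and 109.9 CPM in 5-FU/3-MB-PP1 cells, against 65.1 and 73.6 CPM in 5-FU cells (log2 fold change 0.65, SE 0.09, edgeR adjusted p = 8.28e-06), and RPA3 rose at 0.49. Both 5-FU/3-MB-PP1 libraries of RPA1 lay above both 5-FU libraries and below the DMSO ones. In the helicase ring, MCM4 at 0.32, MCM6 at 0.32, MCM7 at 0.19, MCM2 at 0.18 and MCM5 at 0.18 rose, and MCM3 at -0.05 did not pass the test. MCM4 had 165 and 167 CPM in 5-FU/3-MB-PP1 cells, against 128 and 139 CPM in 5-FU cells (log2 fold change 0.32, SE 0.05, edgeR adjusted p = 5.28e-05). ORC4 also rose, with 178 and 198 CPM in 5-FU/3-MB-PP1 cells, against 158 and 155 CPM in 5-FU cells. Of the firing genes only GINS4 rose, at 0.49. The polymerase genes that rose all belong to the alpha-primase complex, with POLA1 at 0.46, PRIM1 at 0.43 and PRIM2 at 0.36. POLA1 had 46.3 and 48.7 CPM in 5-FU/3-MB-PP1 cells, against 33.4 and 35.5 CPM in 5-FU cells (log2 fold change 0.46, SE 0.07, edgeR adjusted p = 2.49e-05). The clamp genes that rose were RFC5 at 0.41, DSCC1 at 0.40, RFC2 at 0.33 and RFC4 at 0.29. TIMELESS and WDHD1, of the fork, rose at 0.30 and 0.26, and ASF1B and DNMT1 at 0.43 and 0.15.

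The 3 genes that fell were CDT1, CDC7 and GINS3. CDT1 had 19.8 and 20.7 CPM in 5-FU/3-MB-PP1 cells, against 30.3 and 28.4 CPM in 5-FU cells (log2 fold change -0.53, SE 0.09, edgeR adjusted p = 7.02e-05). CDC7 changed by -0.34 and GINS3 by -0.31. The GINS3 call was kept in 2 of 14 alternatives, and among the genes that rose that of MCM5 was kept in 6 of 14. CDC6 had 23.3 and 27.4 CPM in 5-FU/3-MB-PP1 cells, against 29.7 and 28.2 CPM in 5-FU cells, and did not pass the test, and PCNA at -0.08 did not either. Set beside the same compound without 5-FU, CDT1, CDC7 and GINS3 were lower in both settings, RPA1 was higher in both, and DSCC1, MCM2 and MCM7 were lower without 5-FU and higher after it. A further 22 genes were called lower only in the test without 5-FU, 16 were called higher only in the test after it, and 9 passed neither test, counts that by themselves do not show a difference between the settings.

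Leaving out 5-FU/3-MB-PP1 cells replicate 2 left 10 genes called higher, and leaving out 5-FU cells replicate 2 left 13. The calls of CDT1, DSCC1, GINS4, MCM4, MCM6, POLA1, RFC5 and RPA1 held under every alternative except the spike-in scaling. Under the spike-in scaling no gene of the 54 was called. Then 35 lay above the median of all genes, against 34 otherwise, a position that a change of scaling leaves nearly in place.

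**Figure D2:**
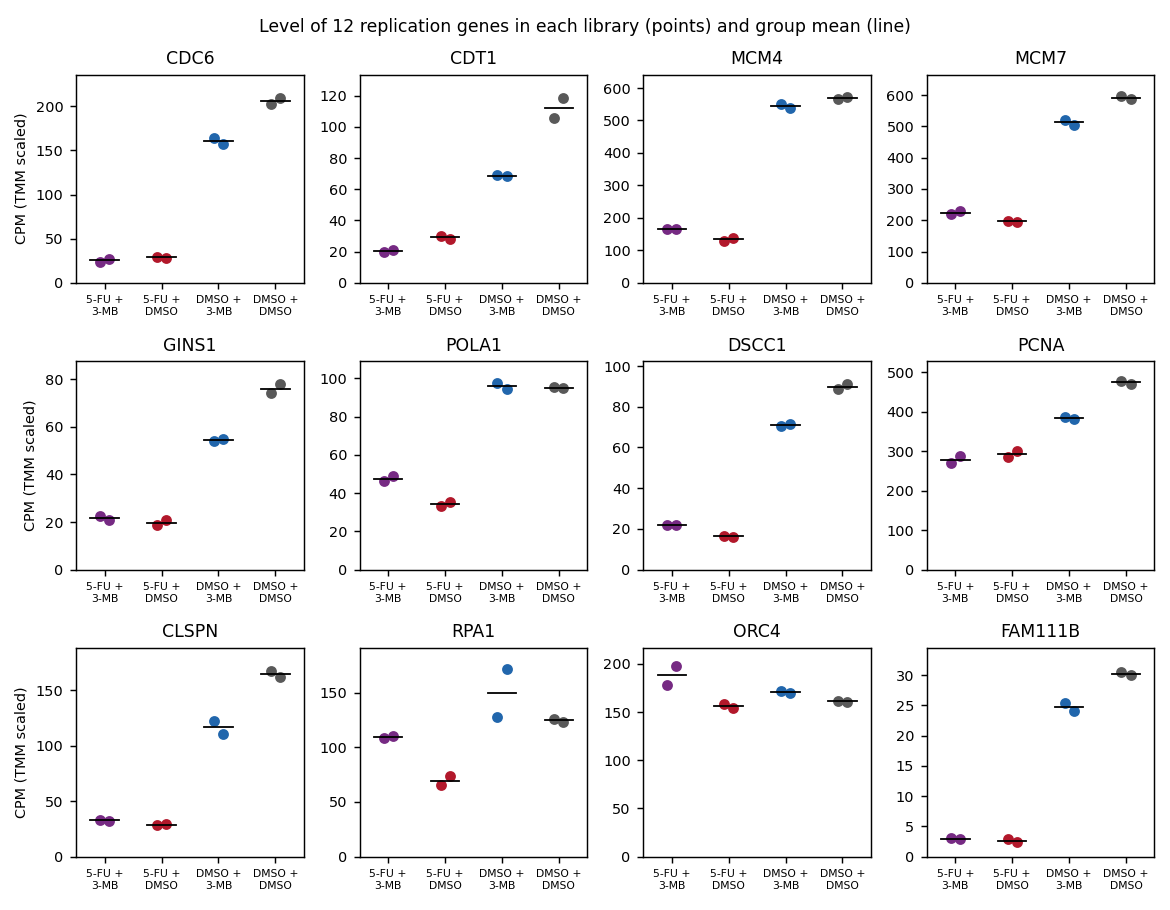
CPM (y axis, from 0) of 12 of the genes in each library (points) and the group mean (line), for 5-FU/3-MB-PP1, 5-FU, 3-MB-PP1 and DMSO cells from left to right. MCM4, POLA1 and DSCC1 stand higher in 5-FU/3-MB-PP1 cells than in 5-FU cells, CDT1 stands lower, and 1 of the 3-MB-PP1 libraries of RPA1 lies at 171 CPM.

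The effect of 5-FU was also measured with 3-MB-PP1 present in both groups. In 5-FU/3-MB-PP1 cells against 3-MB-PP1 cells, 51 of the 54 genes fell, or 94.4%, and none rose. Of all genes tested 39.4% were called, 19.8% lower and 19.7% higher. In all 54 genes the libraries of the groups did not overlap, as was so in 67.9% of all genes tested. The median log2 fold change was -1.32, and 39 genes were more than 2-fold lower. ORC2, ORC4 and ORC5 did not pass the test, at 0.08, 0.14 and -0.08. FAM111B was again the most lowered, at -3.08, followed by CDC6, with 23.3 and 27.4 CPM in 5-FU/3-MB-PP1 cells, against 164 and 158 CPM in 3-MB-PP1 cells (log2 fold change -2.67, SE 0.07, edgeR adjusted p = 3.94e-19). The smallest fall among those called was in RPA1, with 108 and 109.9 CPM in 5-FU/3-MB-PP1 cells, against 127 and 171 CPM in 3-MB-PP1 cells (log2 fold change -0.43, SE 0.09, edgeR adjusted p = 0.000368). PCNA changed by -0.46, and the helicase ring subunits had log2 fold changes of -1.71 (MCM4), -1.48 (MCM2), -1.44 (MCM5), -1.42 (MCM3), -1.20 (MCM7) and -1.15 (MCM6). Across the 54 genes, the 5-FU changes with and without 3-MB-PP1, which share no library, had a Pearson r of 0.979 and a Spearman rho of 0.975. Those of 3-MB-PP1 with and without 5-FU had an r of 0.789 and a rho of 0.758. These coefficients describe genes within the same libraries, and genes are not independent replicates.

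**Figure D3:**
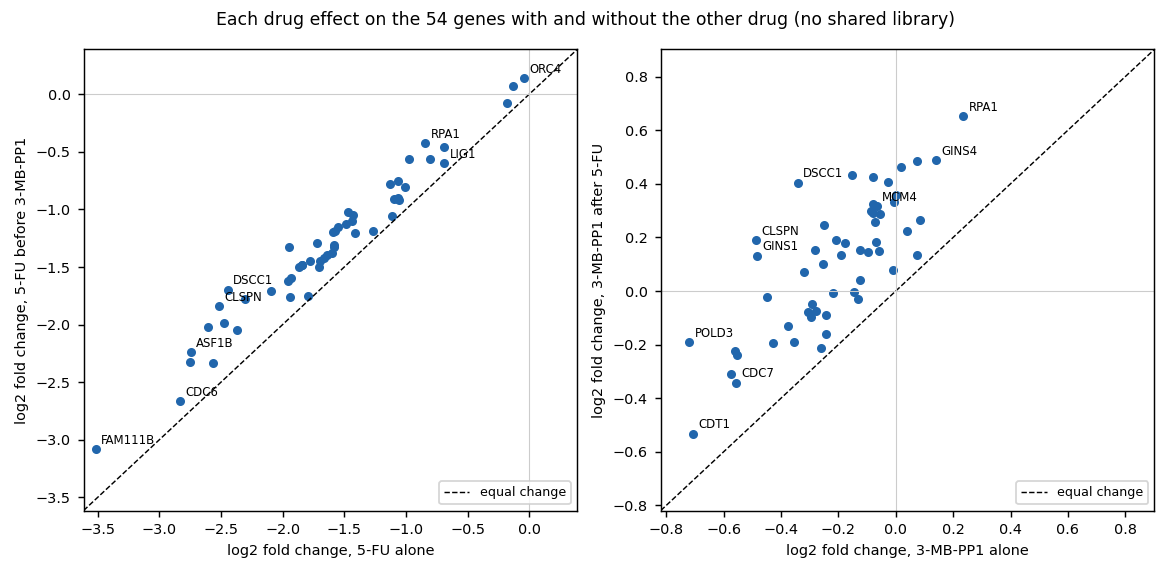
Left, log2 fold change of each of the 54 genes for 5-FU before 3-MB-PP1 (y axis) against 5-FU alone (x axis). Right, the same for 3-MB-PP1 after 5-FU against 3-MB-PP1 alone, with the dashed line marking equal change. The points lie above the dashed line in both panels, by 0.05 in POLE2 up to 0.75 in DSCC1.

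Whether the 3-MB-PP1 change differed with 5-FU was tested directly as an interaction, the 3-MB-PP1 change after 5-FU minus that without it. A positive value means that the compound raised a gene more, or lowered it less, after 5-FU, which is the same as a smaller 5-FU fall with the compound. The interaction was called in 14 of the 54 genes, all positive, or 25.9%, against 2.11% of all genes tested called in that direction and 4.11% in either. The estimates ran from 0.05 in POLE2 to 0.75 in DSCC1, with a median of 0.33 against 0.01 for all genes, and all 54 were above 0. The 54 estimates rest on the same 8 libraries, so a shift of a library moves them together.

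DSCC1 had the largest interaction, 0.75 (SE 0.11, edgeR adjusted p = 0.000106). Its libraries were at 21.8 and 21.8 CPM in 5-FU/3-MB-PP1 cells, 16.7 and 16.3 CPM in 5-FU cells, 70.4 and 71.3 CPM in 3-MB-PP1 cells and 88.5 and 91.0 CPM in DMSO cells. The compound thus went with more DSCC1 RNA after 5-FU and with less without it. CLSPN followed at 0.68 (SE 0.10, edgeR adjusted p = 0.000153), with 33.1 and 32.3 CPM in 5-FU/3-MB-PP1 cells, 28.1 and 29.3 CPM in 5-FU cells, 122 and 110.4 CPM in 3-MB-PP1 cells and 167 and 161 CPM in DMSO cells. For CLSPN the compound lowered the gene without 5-FU and its change after 5-FU, 0.19, did not pass the test. GINS1 behaved in the same manner, at 0.62 (SE 0.12, edgeR adjusted p = 0.00202), with 22.5 and 20.7 CPM in 5-FU/3-MB-PP1 cells, 18.7 and 20.7 CPM in 5-FU cells, 53.99 and 54.9 CPM in 3-MB-PP1 cells and 74.0 and 78.0 CPM in DMSO cells.

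Of the ring, 4 subunits were among the 14, MCM6 at 0.40, MCM7 at 0.40, MCM4 at 0.38 and MCM2 at 0.36, whereas MCM5 and MCM3, at 0.25 and 0.24, did not pass the test. MCM7 had 219 and 228 CPM in 5-FU/3-MB-PP1 cells, 198 and 194 CPM in 5-FU cells, 521 and 503 CPM in 3-MB-PP1 cells and 596 and 587 CPM in DMSO cells. The others were PRIM1 and POLA1 of the alpha-primase complex at 0.59 and 0.45, GINS2 and MCM10 of the firing genes at 0.50 and 0.43, RFC5 and RFC4 of the clamp loader at 0.43 and 0.37, and ASF1B at 0.50. For the loaders, CDC6 at 0.16 (SE 0.10) and CDT1 at 0.17 (SE 0.11) did not pass the test. PCNA, LIG1, RPA2 and ORC5 did not pass it either, at 0.23, 0.09, 0.06 and 0.10.

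The count depended on single libraries, being 6 without 5-FU/3-MB-PP1 cells replicate 2, 7 without DMSO cells replicate 2 and 9 without DMSO cells replicate 1. CLSPN, DSCC1, GINS1, MCM4 and MCM7 kept the call under every alternative except the spike-in scaling. Under the spike-in scaling no gene was called, the median of all genes moved to -0.31 and 25 of the 54 lay above 0. All 54 lay above the median of all genes under both scalings. This is nearly fixed in advance, since a change of scaling shifts all genes by nearly the same amount, and it lends the calls no support.

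**Figure D4:**
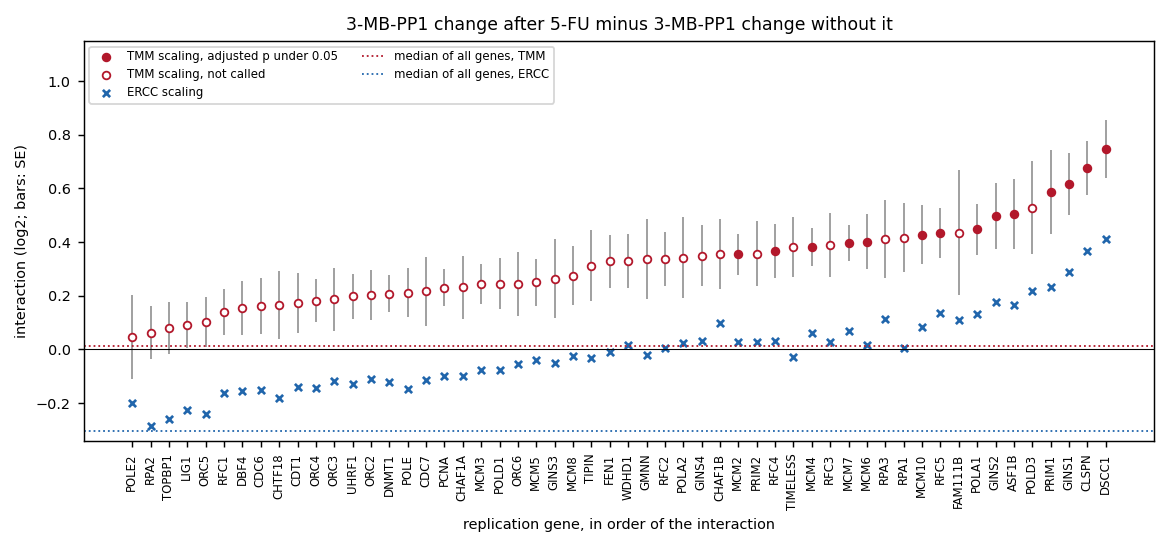
Interaction on the log2 scale (y axis) for each of the 54 genes in rising order, with circles for the TMM scaling (filled where called, bars are SE) and crosses for the spike-in scaling, and dotted lines at the median of all genes under each. The median line moves from 0.01 under TMM to -0.31 under the spike-ins. The genes move with it, since a change of scaling shifts all genes by nearly the same amount.

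A further 31 replication genes outside the 54 were measured for context. With 5-FU alone 26 of them fell, 1 rose and 4 did not pass the test, or 83.9% lower against 22.6% of all genes tested, with a median log2 fold change of -0.96. The most lowered were ORC1 at -2.61 and TICRR, listed under its older symbol C15orf42 and needed for firing, at -2.54. CDC45, the third part of the active helicase, fell at -2.27. POLD4, a small polymerase delta subunit, was the 1 that rose, at 0.50, while POLE4 at -0.01 and TOP1 at -0.03 did not pass the test. Without 5-FU, 3-MB-PP1 lowered 13, or 41.9% against 16.9% of all genes tested, and raised 1, which was TOP1 at 0.38. After 5-FU it raised 12, or 38.7% against 15.7% of all genes tested, and lowered 8, or 25.8% against 17.2%. These included CDC45 at 0.31 and TICRR at 0.44 among those raised, and MCM9 at -0.63 among those lowered. The interaction was called in 8 of the 31, all positive, or 25.8% against 2.11% of all genes tested, of which ATAD5, the protein that unloads PCNA, had the largest, at 0.89 (SE 0.15, edgeR adjusted p = 0.000536). Of the 31 estimates 7 were negative, the lowest being POLD4 at -0.29, DBF4B at -0.27, MCM9 at -0.22 and RNASEH2C at -0.21, and RNASEH2A, which removes ribonucleotides from DNA, was nearest to 0 of the 7 at -0.02. None of the 7 passed the test.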

How the data were processed

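Total RNA of 8 HCT-116 libraries was depleted of ribosomal RNA with Ribo-Zero and sequenced from one end, per the labels' protocols. Reads were aligned with TopHat2 2.0.13 to hg19, per the submitters' processing notes. The sources used here do not give the counter, whether it used strand, or its annotation. The deposited tables list read counts and RPKM per RefSeq transcript, both made by the authors. They hold 41735 sequences, of which 92 are ERCC spike-ins, at 2.18% to 4.16% of the library totals. Starts in the tables count from 0, and coordinates here count from 1.

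Each symbol was represented by its transcript of highest mean count, giving 23857 genes. Rows without a symbol were named by accession from RefSeq (5901 of 6260 matched), and 4189 of them were left out because their gene is listed by symbol. Of the 54 genes, 21 have several transcripts and 10 overlap another gene, and RPA3, POLA1, TIPIN and UHRF1, which overlap LOC729852, SCARNA23, SCARNA14 and MIR4747, are among these. Counts were tested with edgeR 4.0.16 (R 4.3.3): filterByExpr, TMM scaling, a model with 1 mean per group over all 8 libraries (4 residual degrees of freedom), and two-sided quasi-likelihood tests. P-values were adjusted by Benjamini-Hochberg over 15681 genes within each of 5 comparisons, with a threshold of 0.05. The SE is the absolute log2 fold change over the square root of F. CPM are TMM scaled and serve within a gene, and RPKM serve between genes.

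Alternatives were DESeq2 1.42.0, RLE scaling, ERCC scaling, no count filter, the longest transcript, a replicate block and leaving out each library. The genes, roles and further lists were chosen with earlier results of these data known. Genes are named by role: in each comparison those with the largest and the smallest change, those against the main direction, MCM2 to MCM7, CDC6, CDT1, PCNA and those with a called interaction; others are given as further members of the same complex.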

Additional observations from a re-analysis of the deposited data

Results flagged for a closer look

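For 14 of the 54 genes the change with 3-MB-PP1 after 5-FU differed from that without 5-FU by the direct test of the difference (edgeR interaction, adjusted p under 0.05). The differences on the log2 scale, after 5-FU minus without it, were 0.75 for DSCC1, 0.68 for CLSPN, 0.62 for GINS1, 0.59 for PRIM1, 0.50 for ASF1B, 0.50 for GINS2 and 0.45 for POLA1. They were 0.43 for RFC5, 0.43 for MCM10, 0.40 for MCM6, 0.40 for MCM7, 0.38 for MCM4, 0.37 for RFC4 and 0.36 for MCM2. DSCC1, MCM2 and MCM7 were each called lower with the compound in cells without 5-FU and higher with it in cells given 5-FU. For 11 of the 14 genes at most 1 of these directions was called. Among DSCC1, MCM2 and MCM7, only DSCC1 kept the call after 5-FU under every alternative except the spike-in scaling. Scaled to the ERCC spike-ins, whose share of the library totals ran from 2.18% to 4.16%, none of the 14 was called.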

How the results depend on the processing

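Deviations from the group means of same-numbered libraries correlated at -0.058 to 0.043, so no shared replicate effect was seen. Values near 0 cannot decide whether the replicate numbers pair the libraries, since a small shared effect could give them too. With a replicate block, 6930 genes were called for 5-FU alone and 4509 for 3-MB-PP1 alone. It called 5221 for the compound after 5-FU, 6233 for 5-FU with the compound in both groups and 672 for the interaction, the last with 16 of the 54 genes. In the same order, scaling to the ERCC spike-ins gave 243, 112, 53, 140 and 0 genes called (by the other settings with all libraries the interaction had 380 to 927). Of the 54 genes it called 20, 0, 0, 16 and 0 lower and 0 higher, with no interaction or 3-MB-PP1 change at an unadjusted p under 0.05. The medians of the 54 were then -1.50, 0.029, 0.019, -1.52 and -0.022, beside 0.13, 0.19, -0.11, -0.19 and -0.31 for all genes. With 3-MB-PP1 alone MCM2 turned to 0.035 and MCM7 to 0.0060. DESeq2 called 2680 genes and 0 of the 54 higher with 3-MB-PP1 alone, 3374 genes and 1 of the 54 lower with 3-MB-PP1 after 5-FU, and 380 genes for the interaction. Without a count filter the interaction median was 0.30. The cause of these shifts was not tested.

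Leaving out 1 library at a time gave 5462 to 7017 genes called for 5-FU alone, 3002 to 4558 for 3-MB-PP1 alone, 3331 to 5350 for 3-MB-PP1 after 5-FU, 4502 to 6239 for 5-FU before 3-MB-PP1 and 250 to 914 for the interaction. Of the 54 genes, 51 to 52 were lower with 5-FU alone, 20 to 28 lower and 0 to 1 higher with 3-MB-PP1 alone, 1 to 3 lower and 10 to 20 higher with it after 5-FU, and 51 lower and 0 to 1 higher with 5-FU before it. Interactions were called in 6 to 16 of them, with medians of 0.25 to 0.33. Medians ran from -1.63 to -1.58, -0.20 to -0.17, 0.13 to 0.14 and -1.33 to -1.30 in the other comparisons.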
